A study of Homo sapiens with 20 samples.

Results

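The 10 genes described here are the mitochondrially encoded mRNAs *MT-ND1*, *MT-ND2*, *MT-ND4*, *MT-ND5*, *MT-ND6*, *MT-CYB*, *MT-CO1*, *MT-CO2*, *MT-CO3* and *MT-ATP6*. They were found by matching Ensembl identifiers to these symbols, and make up 10 of the 13 protein genes of the mitochondrial chromosome and 10 of the 60623 genes in the tables of pancreatic progenitors (PPs). All cells came from MEL1 INS GFP/W, a human embryonic stem cell line that carries GFP at the insulin locus as a reporter. Wild-type cells (WT) were compared with cells carrying CRISPR-Cpf1 indels in the first exon of *ALKBH5* (A5-KO), which encodes an enzyme that removes the m6A mark from RNA. PPs of each genotype were treated with actinomycin D (Act D) at 1 µg per ml for 0, 1, 2 or 3 h, which gave 16 libraries, 2 per genotype and time. The other 4 libraries, 2 for each genotype, came from islet-like organoids (hILOs) that received no Act D. A knockout line grown from picked colonies carries whatever else sets it apart from its parent line, and this cannot be told apart from the loss of ALKBH5.

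Mitochondria keep a small circular genome that is copied into RNA by their own polymerase, POLRMT, as long transcripts of the heavy and the light strand. The tRNAs between the genes are then cut out, which frees the mRNAs, and most of these receive a short poly(A) tail. The proteins they encode sit in the inner membrane as the core of complexes I, III, IV and V, each assembled together with many nuclear-encoded subunits. Act D binds to DNA and stops polymerases from moving along it. The treated libraries therefore address how fast each mRNA is lost once its synthesis is blocked, but how far synthesis in mitochondria was blocked was not measured.

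The ends of the 10 coding sequences are shown because they differ in whether a complete stop codon is encoded (hg38 reference, GENCODE annotation; each gene is a single exon without an annotated UTR). In each line the last 24 coding bases are given 5′ to 3′ in the gene's own direction, with the stop codon, or the part of it that is encoded, in capitals.
MT-ND1 (chrM:4239-4262, plus strand): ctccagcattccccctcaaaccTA
MT-ND2 (chrM:5488-5511, plus strand): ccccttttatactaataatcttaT
MT-ND4 (chrM:12114-12137, plus strand): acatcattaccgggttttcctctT
MT-CYB (chrM:15864-15887, plus strand): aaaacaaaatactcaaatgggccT
MT-CO3 (chrM:9967-9990, plus strand): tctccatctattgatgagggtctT
MT-ND5 (chrM:14125-14148, plus strand): ctaaccctactcctaatcacaTAA
MT-CO2 (chrM:8246-8269, plus strand): atagggcccgtatttaccctaTAG
MT-ATP6 (chrM:9184-9207, plus strand): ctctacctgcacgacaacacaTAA
MT-CO1 (chrM:7422-7445, plus strand): gaacccgtatacataaaatctAGA
MT-ND6 (chrM:14149-14172, minus strand): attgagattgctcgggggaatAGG
The upper 5 end in an incomplete stop codon, which the poly(A) tail is known to complete. *MT-ND6* alone among the 10 lies on the minus strand, and its coding strand held 35.6% G and 7.0% C, whereas *MT-ND2* held 9.5% G and 33.5% C. *MT-ND5* and *MT-ND6* end against each other, at positions 14148 and 14149. Where genes overlap, reads can belong to either: *MT-ND4* shares 7 bases with *MT-ND4L*, and *MT-ATP6* shares 46 bases with *MT-ATP8* and 1 base with *MT-CO3*. Whether reads were counted by strand is not given in the sources used here, so light-strand reads opposite a heavy-strand gene, and the reverse at *MT-ND6*, cannot be told apart.

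The PP libraries held between 30516384 and 35206514 reads. *ALKBH5* itself was at 33.7 to 172 CPM (counts per 1000000 reads) in the WT PP libraries and 7.43 to 19.1 CPM in the A5-KO ones, and an indel need not remove the mRNA. The libraries did not respond to Act D in the order of their hours. Of 13620 genes averaging 1 CPM or more, 10.1% and 8.5% were at or below 50% of their own 0 h mean in the 2 WT libraries at 1 h. This share was 14.6% in replicate 1 but 6.98% in replicate 2 at 2 h, and 7.47% and 4.55% at 3 h, so WT replicate 2 at 2 h and both WT libraries at 3 h showed less loss than either WT library at 1 h. Whether these 3 libraries were treated and labelled as stated cannot be told from the files, and every difference between genotypes at 2 and 3 h is one between libraries taken by their labels. In A5-KO PPs the share rose from 8.08% and 10.9% at 1 h to 18.0% and 18.3% at 2 h and 20.8% and 23.4% at 3 h. At 1 h the genotypes overlapped in this share, and at 3 h they did not. The part of this gap in the differences between genotypes described for 2 and 3 h was not tested.

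In untreated PPs the 10 mRNAs together took 7.88% and 7.94% of all reads in WT and 9.22% and 8.94% in A5-KO. Per length they spanned a wide range in cells that copy them from shared transcripts. *MT-CO1*, the catalytic core of complex IV, was the highest at 23026 ± 494 CPM per kb in WT (SD, n = 2). *MT-CO3* at 11284 ± 34.6 and *MT-CO2* at 10687 ± 38.2 CPM per kb, the other core subunits of complex IV, came next, before *MT-ND4* at 6698 ± 13.4. *MT-ND1* at 5237 ± 103 and *MT-ATP6* at 5111 ± 143 CPM per kb were neighbours whose libraries overlapped. They were followed by *MT-ND2* at 3338 ± 203, *MT-CYB* at 2630 ± 26.2, *MT-ND5* at 1410 ± 29.0 and *MT-ND6* at 1368 ± 30.4 CPM per kb. The 2 lowest were only just apart, with libraries at 1390 and 1431 for *MT-ND5* and at 1346 and 1389 for *MT-ND6*. In A5-KO PPs the order was the same apart from these neighbours: *MT-ATP6* at 6396 ± 286 stood above *MT-ND1* at 6091 ± 1.41 CPM per kb, and *MT-ND6* and *MT-ND5* overlapped. Reads listed under *MTATP6P1*, a near copy of *MT-ATP6* in the nuclear genome, are not counted in this order. They came to 1032 CPM per kb in WT and 1468 in A5-KO. The place of *MT-ATP6* thus depends on how reads divide between it and this copy.

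**Figure D1:**
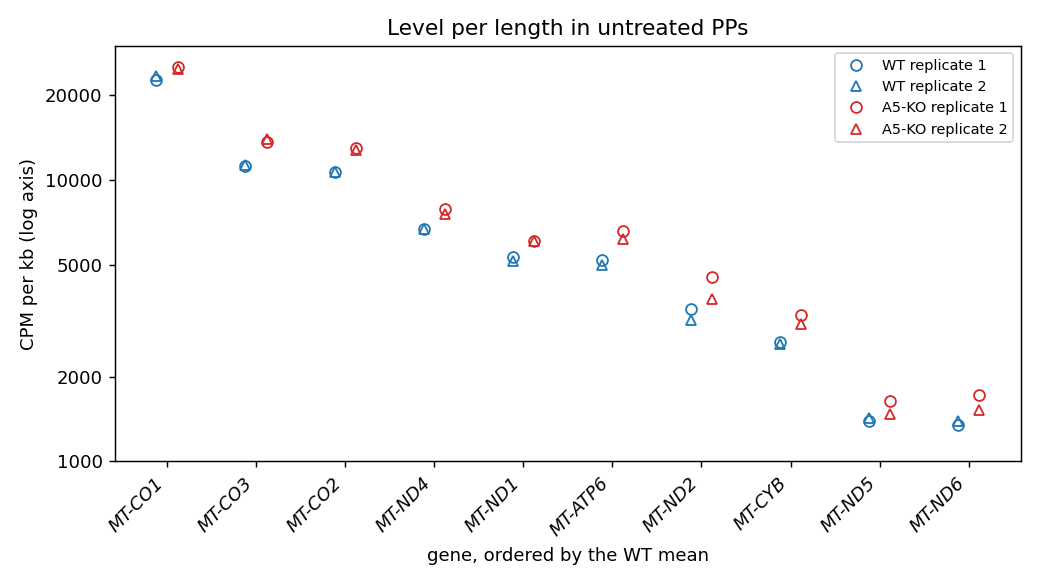
Level of the 10 mRNAs per length in untreated PPs, in CPM per kb on a log axis, with 1 point per library (blue, WT; red, A5-KO; circles, replicate 1; triangles, replicate 2). The 3 complex IV mRNAs lie on top, *MT-CO1* at 22677 to 25262 CPM per kb, and *MT-ND5* and *MT-ND6* lie lowest, at 1346 to 1720 CPM per kb.

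Before Act D, every one of the 10 mRNAs separated the genotypes, with both A5-KO libraries above both of WT, by small amounts. The background of such separation was 29.0% of 13911 tested genes. *MT-ATP6*, a subunit of the proton channel of ATP synthase, measured 3549 and 3412 CPM in the WT libraries against 4493 and 4218 CPM in those of A5-KO. *MT-CO3* measured 8827 and 8866 CPM against 10719 and 11013 CPM. *MT-CO1* moved least, from 34968 and 36044 CPM to 38954 and 38193 CPM. The log2 differences ran from 0.12 for *MT-CO1* to 0.32 for *MT-ATP6*, with a median of 0.26 against 0.03 over all tested genes. With limma over all tested genes, 4 of the 10 passed a Benjamini-Hochberg adjusted p of 0.05: *MT-ATP6* (log2 difference 0.32, SE 0.06, adjusted p = 0.023), *MT-CO3* (0.30, SE 0.06, adjusted p = 0.027), *MT-CO2* (0.27, SE 0.06, adjusted p = 0.035) and *MT-CYB* (0.28, SE 0.06, adjusted p = 0.040). The background at that limit was 2.16% of genes higher. No member also exceeded 1.5-fold, the second condition for a call, which 1.57% of genes met in this direction. At an unadjusted p below 0.05 limma gave 8 members, all higher, beside 2684 of the 13911 genes in either direction. With edgeR on the recovered reads 6 passed the adjusted p, for which no share of all genes is given. Past 1.5-fold edgeR called 0 members, beside 206 genes higher. None of the 4 passed without WT replicate 1 or without WT replicate 2 (adjusted p 0.16 to 0.36), nor did *MT-CO2* (0.062) and *MT-CYB* (0.09) without A5-KO replicate 1, and the difference of *MT-ND2* ran from 0.18 to 0.44 as libraries were left out. The mitochondrial rRNAs did not share the direction, at a log2 difference of -0.37 (SE 0.10, adjusted p = 0.073) for *MT-RNR1* and -0.12 (SE 0.07, adjusted p = 0.39) for *MT-RNR2*.

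The cells of the genotypes were not alike in marker genes either. The summed level of 7 hepatocyte markers was 1090 to 1139 CPM in the untreated WT libraries and 1896 to 1922 CPM in the A5-KO ones, with none of the 7 below 1 CPM. Most of that gap was *AFP* (551 to 563 and 1294 to 1343 CPM); 5 of the 7 were called higher, while *SERPINA1* was lower (311 to 371 and 200 to 268 CPM). The 4 pluripotent stem cell markers summed to 121 to 124 CPM in WT and 234 to 248 CPM in A5-KO, with 2 of the 4, the defining markers *POU5F1* and *NANOG*, below 1 CPM in each genotype. This sum was nearly all *LIN28A* (115 to 119 and 230 to 246 CPM), and *DPPA4* lay the other way (4.97 to 5.89 and 2.72 to 4.31 CPM). Markers of intestine (6 genes, 705 to 712 and 887 to 910 CPM) and mesenchyme (7 genes, 533 to 540 and 640 to 650 CPM) were also higher in A5-KO in sum, whereas those of PPs (7 genes, 903 to 1154 and 841 to 925 CPM) and islet endocrine cells (8 genes, 3.66 to 3.88 and 2.81 to 4.33 CPM) overlapped. Of the intestine markers 0 were called, 2 were below 1 CPM and *FABP1* lay the other way (99.2 to 118 and 96.1 to 99.1 CPM). The mesenchyme sum was mostly *VIM* (415 to 429 and 445 to 449 CPM), which was not called. Among the other mesenchyme markers 4 were called higher, while *COL1A2* lay the other way (69.0 to 73.9 and 64.7 to 68.7 CPM). Of the PP markers *ONECUT1* was called lower in A5-KO (17.1 to 18.7 and 5.33 to 7.23 CPM). The part of cell composition in the higher mitochondrial share was not tested. In bulk RNA, more cells of a type and more RNA per cell cannot be told apart.

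Act D divided the 10 mRNAs. *MT-ND2* lost most, *MT-ND6* gained in the first hour in both genotypes and *MT-CO1* passed the test at no time. These are shares of all reads, which also shift when other RNAs are lost. Since the spike-in scaling of the study is not contained in CPM, a rise here is a rise relative to the other RNAs of that library.

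**Figure D2:**
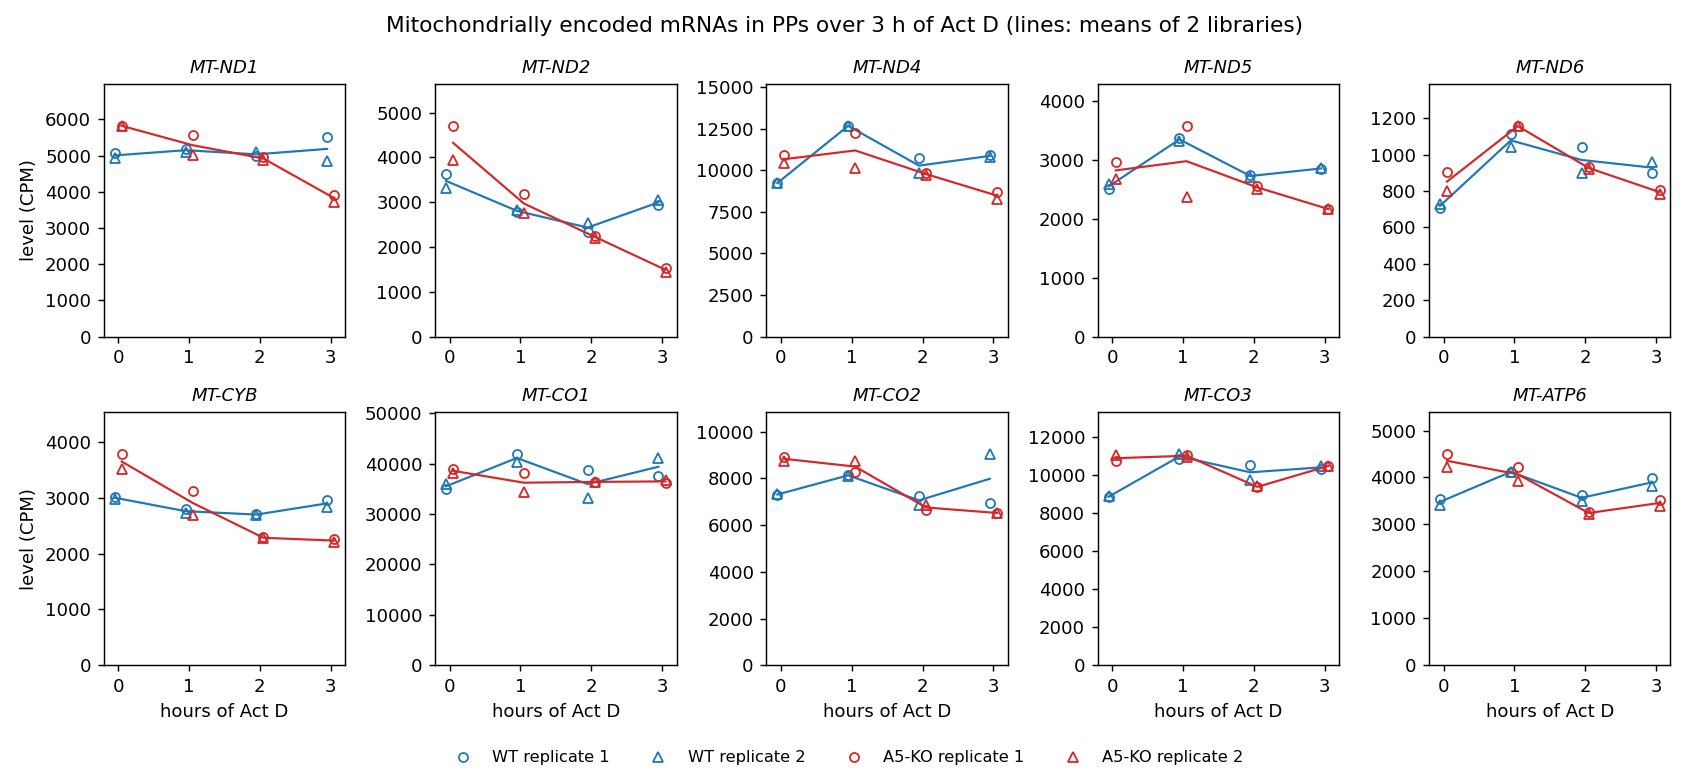
Level of each of the 10 mRNAs in PPs (CPM, each axis from 0) against hours of Act D, with 1 point per library and lines through the means of 2 libraries (blue, WT; red, A5-KO). *MT-ND2*, *MT-CYB* and *MT-ND1* end below their start in A5-KO, at 1443 to 1543, 2199 to 2267 and 3731 to 3922 CPM, whereas *MT-CO1* stays between 33203 and 41840 CPM throughout.

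Of the complex I subunits, *MT-ND2*, part of the proton-pumping membrane arm, fell furthest. The WT libraries measured 3627 and 3329 CPM untreated, 2794 and 2824 CPM after 1 h, 2332 and 2540 CPM after 2 h and 2936 and 3059 CPM after 3 h. The A5-KO libraries measured 4707 and 3947 CPM untreated, 3185 and 2760 CPM after 1 h, 2249 and 2211 CPM after 2 h and 1543 and 1443 CPM after 3 h. All treated libraries of a genotype were below its untreated ones, and only in A5-KO was 3 h the lowest time. The A5-KO log2 changes were -0.54 at 1 h (SE 0.09, limma adjusted p = 0.00046), -0.95 at 2 h (SE 0.09, adjusted p = 1e-06) and -1.53 at 3 h (SE 0.09, adjusted p = 1.9e-08). In WT they were -0.31 at 1 h (SE 0.09, adjusted p = 0.022), -0.51 at 2 h (SE 0.09, adjusted p = 0.00054) and -0.21 at 3 h (SE 0.09, adjusted p = 0.14).

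*MT-ND1*, the membrane subunit next to the quinone site, held its level for longer. All 8 WT libraries lay between 4860 and 5513 CPM, with log2 changes of 0.04, 0.01 and 0.05 at 1, 2 and 3 h. The A5-KO libraries went from 5822 and 5824 CPM untreated over 5567 and 5011 CPM after 1 h and 4958 and 4884 CPM after 2 h to 3922 and 3731 CPM after 3 h. Its change at 3 h was -0.61 (SE 0.08, limma adjusted p = 5.8e-06), just past 1.5-fold, and -0.57 without A5-KO replicate 2 at 3 h, which is not. *MT-ND4* and *MT-ND5*, the antiporter-like subunits at the far end of the membrane arm, both rose in WT at 1 h, by 0.46 (SE 0.09, adjusted p = 0.0014) and 0.39 (SE 0.12, adjusted p = 0.031). *MT-ND4* went from 9243 and 9217 CPM to 12665 and 12671 CPM in that hour, and *MT-ND5* from 2518 and 2593 to 3374 and 3336 CPM. In A5-KO both were lower at 3 h than at 0 h, at -0.33 (SE 0.09, adjusted p = 0.0045) and -0.38 (SE 0.12, adjusted p = 0.017), within 1.5-fold. A5-KO replicate 2 at 1 h stood apart for *MT-ND5*, at 2383 CPM beside 3586 CPM in replicate 1.

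*MT-ND6*, the light-strand mRNA, had the largest rise of the 10 in the first hour in both genotypes. Its WT libraries went from 707 and 729 CPM to 1113 and 1043 CPM, and those of A5-KO from 903 and 801 CPM to 1155 and 1158 CPM. The log2 changes were 0.59 (SE 0.08, adjusted p = 9.8e-05) and 0.44 (SE 0.08, adjusted p = 0.00067). In WT 5 of the 10 were higher at 1 h by the adjusted p alone, beside 1.62% of genes. By limma the WT value of *MT-ND6* was the only call of a higher member at any time, at the 1.5-fold limit, beside a background of 0.301% of genes called higher at 1 h. It fell under 1.5-fold without WT replicate 1 at 0 h (0.56) or at 1 h (0.54). At 3 h *MT-ND6* was still above 0 h in WT (899 and 957 CPM, 0.37, SE 0.08, adjusted p = 0.0069), which was not seen in A5-KO (805 and 783 CPM, -0.10, SE 0.08, adjusted p = 0.31).

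In complex III, *MT-CYB*, which encodes the only subunit made in mitochondria, was the member with the next largest loss in A5-KO. Its WT libraries measured 3022 and 2980 CPM untreated and 2966 and 2833 CPM after 3 h. Those of A5-KO measured 3778 and 3520 CPM untreated, 3128 and 2689 CPM after 1 h, 2295 and 2272 CPM after 2 h and 2267 and 2199 CPM after 3 h. The loss was much the same at both later times, with log2 changes of -0.68 at 2 h (SE 0.07, adjusted p = 3.1e-06) and -0.71 at 3 h (SE 0.07, adjusted p = 9.6e-07). Over the 16 libraries the log2 levels of *MT-CYB* and *MT-ND2* had a Pearson r of 0.93, and those of *MT-ND4* and *MT-ND5* one of 0.94, while *MT-ND2* and *MT-ND6* had 0.04. These libraries share their times and genotypes, so the coefficients only describe which mRNAs moved together.

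In complex IV, *MT-CO1* and *MT-CO3* changed little. After 3 h *MT-CO1* measured 37631 and 41138 CPM in the WT libraries and 36250 and 36694 CPM in those of A5-KO, with log2 changes from 0 h of 0.15 (SE 0.09, adjusted p = 0.33) and -0.08 (SE 0.09, adjusted p = 0.49). *MT-CO3* rose in WT, by 0.31 at 1 h (SE 0.07, adjusted p = 0.0039) and 0.23 at 3 h (SE 0.07, adjusted p = 0.034), and stood at -0.06 in A5-KO at 3 h (SE 0.07, adjusted p = 0.52). *MT-CO2* went its own way: its A5-KO libraries measured 8922 and 8752 CPM untreated and 6526 and 6514 CPM after 3 h, a change of -0.44 (SE 0.09, adjusted p = 0.001). The untreated WT libraries measured 7292 and 7328 CPM, and those of 3 h disagreed at 6940 and 9029 CPM.

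In complex V, *MT-ATP6* rose in WT at 1 h to 4122 and 4117 CPM (0.24, SE 0.07, adjusted p = 0.016) and measured 3985 and 3812 CPM after 3 h (0.16, SE 0.07, adjusted p = 0.12). In A5-KO it fell from 4493 and 4218 CPM to 3523 and 3392 CPM at 3 h (-0.33, SE 0.07, adjusted p = 0.0006).

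Counted together, 3 of the 10 members were called lower in A5-KO at 3 h, *MT-ND2*, *MT-CYB* and *MT-ND1*, beside 32.0% of all 13620 tested genes. At 2 h *MT-ND2* and *MT-CYB* were called lower beside 28.5% of genes, and at 1 h none beside 17.1%. These counts are near or under the background, as Act D lowered many genes. In WT no member was called lower at 1, 2 or 3 h, where 15.4%, 17.4% and 9.37% of genes were, although *MT-ND2* passed the adjusted p at 1 and 2 h; at an unadjusted p below 0.05 1 member was lower at each time, and edgeR called 0. Both A5-KO libraries of 3 h were under both of 0 h for 9 of 10 members, all but *MT-ND6*, beside 55.3% of all genes. The median log2 change of the members at 3 h was -0.36 in A5-KO against -0.25 over all genes, and 0.16 in WT against -0.10. Scaling to a median of ratios, which moved the median of all genes in A5-KO at 3 h from -0.25 to 0.04, turned *MT-CO1* (0.21), *MT-CO3* (0.23) and *MT-ND6* (0.19) positive and left *MT-ND2* as the only member called. With that scaling 3194 of 13589 genes were called lower, and the share of lower among all calls went from 92.7% to 64.6%.

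**Figure D3:**
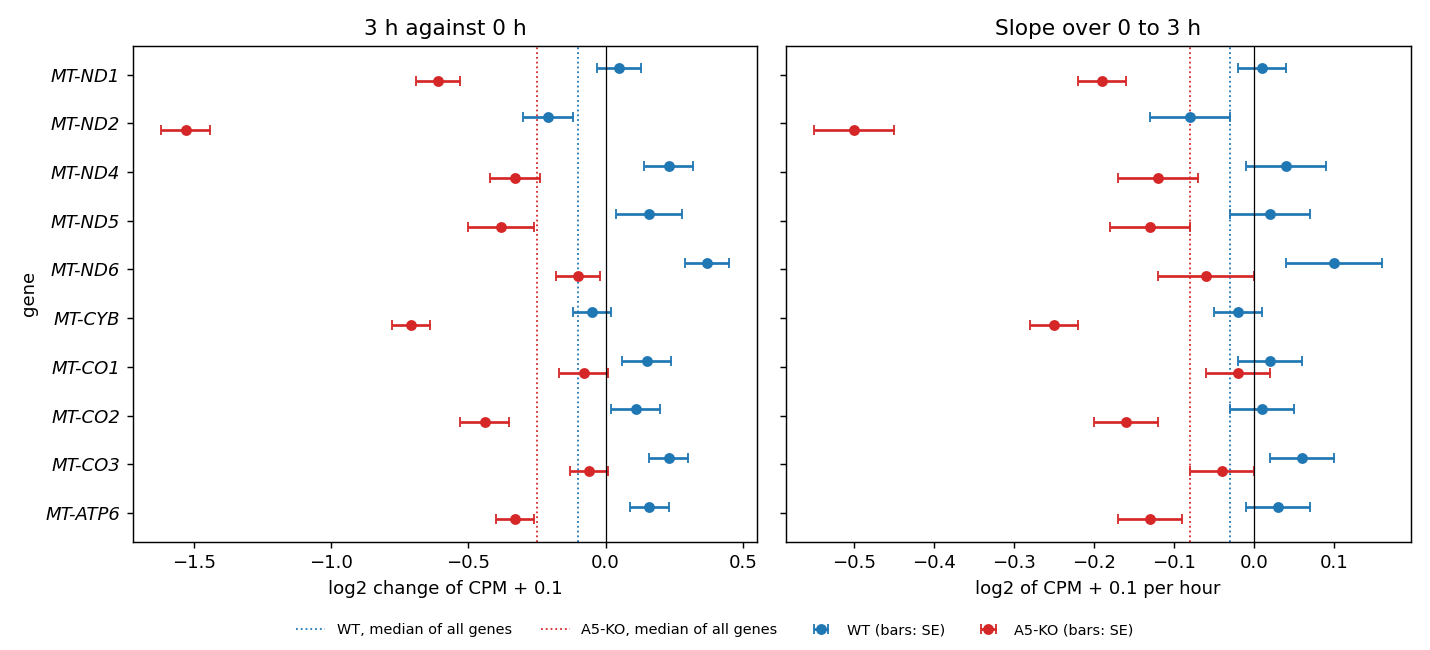
Log2 change of CPM + 0.1 from 0 h to 3 h (left) and slope per hour over all times (right) for each mRNA, with SE bars (blue, WT; red, A5-KO) and dotted lines at the median of all 13620 genes. At 3 h every A5-KO point lies left of its WT point, from -1.53 for *MT-ND2* to -0.06 for *MT-CO3*.

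The genotypes were then compared at each time of Act D. At 1 h no member passed the adjusted p, with log2 differences from -0.20 (*MT-ND5*) to 0.10 (*MT-ND6*), beside 3.05% of genes called higher and 1.24% lower. At an unadjusted p below 0.05 it was 1 member, *MT-ND4* (-0.19), and edgeR passed 0. At 2 h 9 of 10 differences were negative, and *MT-CYB* alone passed the adjusted p (-0.24, SE 0.07, adjusted p = 0.043), within 1.5-fold, beside 8.03% of genes lower at that limit. Without WT replicate 2, the library with the smaller loss, *MT-CYB* was at -0.24 with an adjusted p of 0.15. At 3 h 9 of the 10, all but *MT-CO3*, had both A5-KO libraries under both of WT, beside 46.0% of genes. The test was passed by 7 of the 10, *MT-ND1*, *MT-ND2*, *MT-ND4*, *MT-ND5*, *MT-ND6*, *MT-CYB* and *MT-CO2*, beside 26.9% of genes lower. *MT-ND2* alone was called past 1.5-fold (-1.01, SE 0.09, adjusted p = 5.5e-06), beside 19.1% of genes. Its difference ran from -1.05 to -0.87 over the alternatives tried. *MT-ND1* followed at -0.44 (SE 0.08, adjusted p = 0.00045) and *MT-ATP6* did not pass (-0.17, SE 0.07, adjusted p = 0.063).

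Over all times, a slope of log2(CPM + 0.1) per hour was fitted for each genotype. In WT none of the 10 slopes was called by limma, at an unadjusted p below 0.05 or by edgeR, and they ran from -0.08 for *MT-ND2* to 0.10 for *MT-ND6*, beside 0.11% of genes called lower. Of all 13620 genes the WT slope called 15 lower, while 2100 were called lower in WT at 1 h. The lack of a WT slope call therefore does not show a steady level. In A5-KO all 10 slopes were negative and 6 were called lower, beside 37.1% of genes: *MT-ND2* (-0.50), *MT-CYB* (-0.25), *MT-ND1* (-0.19), *MT-CO2* (-0.16), *MT-ATP6* (-0.13) and *MT-ND5* (-0.13). With the median-of-ratios scaling only *MT-ND2* and *MT-CYB* of these 6 were called, beside 3636 of 13589 genes lower. Without it, the median A5-KO slope was -0.13 for the members and -0.08 over all genes. The call of *MT-ND5* (adjusted p = 0.045) was also lost with no filter (0.11), with scaling to genes not encoded by mitochondrial DNA (0.064), without 2 h (0.084), without 3 h (0.51) and without any 1 of 7 of the 16 libraries (0.051 to 0.14). The difference of the slopes was negative for all 10 members, with a median of -0.16 beside -0.07 over all genes. It was called for *MT-ND2* (-0.42, SE 0.06, adjusted p = 0.036), *MT-CYB* (-0.23, SE 0.05, adjusted p = 0.036) and *MT-ND1* (-0.20, SE 0.04, adjusted p = 0.036), beside 2.61% of genes lower. These 3 end in an incomplete stop codon, as do *MT-ND4* and *MT-CO3*, whose differences were -0.16 (SE 0.07, adjusted p = 0.17) and -0.10 (SE 0.05, adjusted p = 0.26). These calls did not hold in every fit. No filter (adjusted p 0.086 to 0.096) and the replicate block (0.053) each left none. Median-of-ratios scaling left *MT-ND2* alone, beside 105 of 13589 genes lower, while edgeR and the fit without 2 h called the 3. Without 3 h none of the 10 was called, with *MT-ND2* at -0.22 (adjusted p = 0.27), *MT-CYB* at -0.26 (adjusted p = 0.091) and *MT-ND1* at -0.13 (adjusted p = 0.36). Leaving out WT replicate 1 or 2 at 3 h raised the adjusted p of each of the 3 to 0.13, and of the 16 libraries left out in turn 10 ended the call of *MT-ND2* and 11 that of *MT-CYB* and of *MT-ND1*.

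Ratios within a library do not depend on its total. The ratio of *MT-ND2* to *MT-ND1* was 0.714 and 0.674 in untreated WT and 0.809 and 0.678 in untreated A5-KO PPs. It was 0.538 and 0.553 in WT and 0.572 and 0.551 in A5-KO at 1 h, where the genotypes overlapped. At 2 h it was 0.468 and 0.499 in WT and 0.454 and 0.453 in A5-KO. At 3 h it was 0.533 and 0.629 in WT, above the WT values of 2 h, and 0.393 and 0.387 in A5-KO, the lowest of the 16. All treated libraries were below all untreated ones in this ratio.

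The mitochondrial rRNAs, which are cut from the same strand's transcripts upstream of *MT-ND1*, were higher after 3 h of Act D than before it in all 4 libraries, whereas the changes of the 10 mRNAs were mostly positive in WT (8 of 10) and all negative in A5-KO. *MT-RNR1*, the rRNA of the small ribosomal subunit, went from 3384 and 3958 CPM to 13561 and 15371 CPM over 3 h in the A5-KO libraries (log2 change 1.98, SE 0.18, adjusted p = 2.1e-07), and from 4317 and 5189 CPM to 8278 and 7269 CPM in those of WT (0.71, SE 0.18, adjusted p = 0.014). *MT-RNR2*, that of the large subunit, changed by 0.55 (SE 0.11, adjusted p = 0.00049) and 0.31 (SE 0.11, adjusted p = 0.072). The 10 mRNAs together were 2.77 and 2.5 times the rRNAs in untreated WT and 3.47 and 3.26 times in untreated A5-KO libraries. At 3 h they were 2.16 and 2.3 times in WT and 1.63 and 1.49 times in A5-KO. *MT-ND3*, a further complex I mRNA outside the 10, was called lower in A5-KO at 2 h (-0.67, SE 0.12, adjusted p = 0.00029), and *MT-ND4L* and *MT-ATP8* were not called in that genotype at any time. Between the genotypes *MT-ND4L* was called lower in A5-KO at 1 h (-0.85, SE 0.23, adjusted p = 0.033), with libraries at 811 and 411 CPM against 963 and 1119 CPM in WT. Without A5-KO replicate 2 it was at -0.36 (adjusted p = 0.43), and edgeR did not call it (adjusted p = 0.054).

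**Figure D4:**
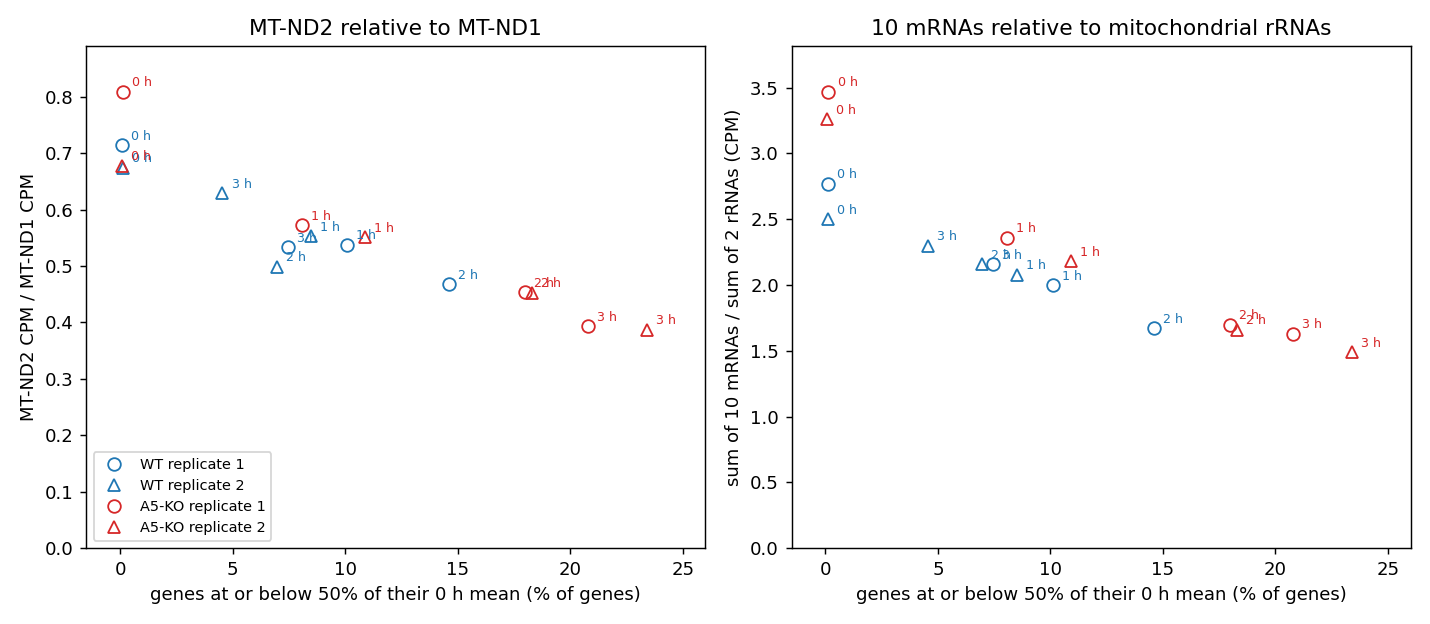
Ratio of *MT-ND2* to *MT-ND1* (left) and of the 10 mRNAs to the 2 mitochondrial rRNAs (right) in each PP library, against the percentage of genes at or below 50% of their own 0 h mean (blue, WT; red, A5-KO; hours of Act D beside each point). In both, untreated libraries lie highest and A5-KO at 3 h lowest, at 0.387 and 0.393 and at 1.49 and 1.63. On the right WT at 3 h lies among the 1 h libraries, at 2.16 and 2.3. On the left it lies at 0.533 and 0.629, on either side of the 1 h libraries at 0.538 to 0.572.

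The nuclear genes that serve mitochondrial gene expression and the respiratory chain were compared by lists, given here as counts only. In A5-KO at 3 h, 7 of 11 genes of mitochondrial transcription were called lower, beside the 32.0% of all genes, with *MTERF1* at -2.92 (SE 0.25, adjusted p = 1.3e-07) and *TEFM*, the elongation factor of POLRMT, at -1.60 (SE 0.29, adjusted p = 0.00023). Of 23 tested genes for mitochondrial RNA processing and stability, 12 were called lower beside that same background, among them *TRMT10C*, a subunit of mitochondrial RNase P (-2.03, SE 0.22, adjusted p = 1.4e-06), and *MTPAP*, the mitochondrial poly(A) polymerase (-1.58, SE 0.22, adjusted p = 1.9e-05). Of the 6 genes for mitochondrial RNA decay, 2 were called lower, a share close to the background: *PDE12*, which removes poly(A) (-1.82, SE 0.21, adjusted p = 2.2e-06), and *SUPV3L1*, the helicase of the degradosome (-0.89, SE 0.13, adjusted p = 3.2e-05). The nuclear subunits stood apart from these in the same comparison, with 0 of 33 complex I, 0 of 9 complex III, 0 of 11 complex IV and 0 of 17 complex V genes called lower by limma or by edgeR (1, 1, 0 and 0 lower at an unadjusted p below 0.05). At an adjusted p of 0.05 without the fold limit, 11, 5, 10 and 11 of them were higher, beside 11.2% of all genes, and, of all these, 1 complex III gene was lower. Their list medians were 0.27, 0.27, 0.45 and 0.29, beside -0.25 over all genes. Before Act D limma called 0 of the genes in these 7 lists between the genotypes, as did edgeR. The lists held 11, 23, 6, 33, 9, 11 and 17 tested genes. At an unadjusted p below 0.05 limma gave 13 of them higher and 0 lower, beside 2684 of all 13911 genes in either direction. The list medians were 0.04 to 0.17, beside 0.03 over all genes.

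In hILOs none of the 10 could be measured. All 37 genes of the mitochondrial chromosome are listed at 0 TPM (transcripts per 1000000) in all 4 libraries, while genes that every cell uses, such as *GAPDH* at 2225.0 to 3663.7 TPM, are not. The values listed sum to between 887320 and 924887 TPM, so 75113 to 112680 TPM of the full scale fall on no gene in these tables. The genome also holds nuclear copies of mitochondrial genes, and these carried values. The 3 with the highest mean TPM lie close together on chromosome 1: *MTCO1P12* (chr1:631074-632616) is 98.7% identical to *MT-CO1*, *MTND2P28* (chr1:629640-630683) 98.37% to *MT-ND2* and *MTATP6P1* (chr1:633696-634376) 98.53% to *MT-ATP6*. Over the aligned length, *MT-ND2* differs from its copy at 17 of 1042 bases and *MT-ATP6* at 10 of 681. For both, a stretch of 30 bases shows some of these differences. In each case it is the first stretch with the most differing bases, which are in capitals.
MT-ND2 (chrM:5469-5498, plus strand): acGctActcctacctatctccccttttatA
MTND2P28 (chr1:630639-630668, plus strand): acActGctcctacctatctccccttttatG
MT-ATP6 (chrM:8648-8677, plus strand): gactaatCaccacccaacaatgactaatcA
MTATP6P1 (chr1:633817-633846, plus strand): gactaatTaccacccaacaatgactaatcC
How reads were divided between genes and copies is not given, so reads of mitochondrial RNA and of RNA from the copies cannot be told apart in these values.

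*MTCO1P12* measured 3205 and 3322 TPM in the WT hILOs against 4904 and 4684 TPM in those of A5-KO, a log2 difference of 0.55 (SE 0.04, limma adjusted p = 0.006). *MTATP6P1* measured 2059 and 2042 TPM against 3009 and 2668 TPM (0.47, SE 0.06, adjusted p = 0.023), and *MTND2P28* 1459 and 1877 TPM against 2439 and 2351 TPM (0.53, SE 0.13, adjusted p = 0.072). In all 3 both A5-KO libraries were above both WT libraries, beside 24.3% of 17300 genes. *MTND1P23*, the closest copy at 99.43% identity to *MT-ND1*, (48.4 and 52.5 against 79.7 and 76.2 TPM, 0.62, SE 0.06, adjusted p = 0.014) and *MTND4P20*, only 74.31% identical to *MT-ND4*, (7.6 and 8.65 against 19.1 and 17.8 TPM, 1.09, SE 0.11, adjusted p = 0.013) were called, 2 of 10 copies beside 2.7% of 17300 tested genes. Others differed widely between replicates, as *MTCO2P12* did (169 and 2058 TPM for WT, 5.53 and 266 TPM for A5-KO, log2 difference -3.83, SE 2.21, adjusted p = 0.32). In PPs, where the mitochondrial genes have values, *MTATP6P1* amounted to 19.3% to 23.6% of *MT-ATP6*, *MTND2P28* to 5.44% to 8.0% of *MT-ND2* and *MTCO1P12* to 0.241% to 0.333% of *MT-CO1*. There *MTND2P28* followed *MT-ND2*, with a log2 change of -1.64 in A5-KO at 3 h (SE 0.18, adjusted p = 1.3e-06).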

How the data were processed

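The authors deposited TPM (StringTie) for the 4 hILO libraries and CPM, with ERCC spike-ins taken out, for the 16 PP libraries; per the methods, reads passed fastp trimming and HISAT2 (2.1.0) alignment to GRCh38 beforehand. The read counter, annotation release, strand setting and treatment of reads with several matches are not given in the sources used here, and these decide how reads divide between mitochondrial genes and their nuclear copies. Identifiers were matched to symbols by GENCODE 44 (60369 of 60623 in PPs, 60370 of 60624 in hILOs).

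Genotypes were compared with limma (3.58.1, R 4.3.3, eBayes with trend) on the log2 scale, with 1 added to TPM (hILOs) and to CPM (untreated PPs), and the Act D course in a fit of all 16 libraries on log2(CPM + 0.1); genes averaging under 1 were left out. These scales understate changes of low genes. A gene was called at an adjusted p below 0.05 and over 1.5-fold, a slope by the adjusted p alone. All 10 members passed the filter in PPs and none in hILOs. At least 99.9951% of CPM values were whole multiples of 1 read (tolerance 0.01 reads), and edgeR (4.0.16) on the recovered reads called 345 to 346 genes higher and 4358 to 4377 lower in A5-KO at 3 h by the 2 tools, limma giving the smaller counts. DESeq2 (1.42.0) was run at 0 h. The 10 members, the gene lists and the tests were chosen with earlier results of these data known. Named were the 10 members, the other mitochondrial mRNAs and rRNAs, at most 4 genes of each list by largest called change, and copies with a mean of at least 10. The study's supplement calls the PP decay libraries biological replicates. Neither it nor the labels say whether they were separate differentiations, so p-values measure only the spread between libraries. In the Act D fits this spread is pooled over all 16 libraries. In the slope fit it also holds departures from a straight line. A permutation test of 2 against 2 cannot go below p = 0.33. Fits were tested on simulated data.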

Additional observations from a re-analysis of the deposited data

Results flagged for a closer look

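Differences of slope between A5-KO and WT over the Act D course were picked out by their test (limma, adjusted p = 0.036 each) for *MT-ND2* (-0.42), *MT-CYB* (-0.23) and *MT-ND1* (-0.20), in log2 per hour, lower in A5-KO. With 0 and 3 h only, 8 of the 10 members were called. No share of all genes is given for that fit, so this count cannot be read as particular to the members. In another comparison, that of the genotypes at 3 h, 26.9% of all genes were lower by the adjusted p alone. With 0 and 1 h only, with no filter (adjusted p 0.086 to 0.096) or with the replicate block (0.053) none of the members was called. The loss of other RNAs differed between the genotypes at 3 h (4.55% and 7.47% of genes at or below 50% of their 0 h mean in WT, 20.8% and 23.4% in A5-KO), and its part in the 3 values was not tested.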

How the results depend on the processing

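Counts of called members, out of 10, changed under these alternatives. With median-of-ratios scaling, 2 were higher in WT and 1 in A5-KO at 1 h, beside 140 and 609 of 13589 genes. In A5-KO 1 was lower at 2 h and at 3 h, beside 2610 and 3194 genes. Under that scaling 2 had a lower A5-KO slope and 1 a lower slope difference, beside 3636 and 105 genes. *MT-CO1* (0.21), *MT-CO3* (0.23) and *MT-ND6* (0.19) in A5-KO at 3 h and the slope difference of *MT-CO1* (0.02) turned positive. A pseudocount of 1 left 0 higher in WT at 1 h, with *MT-ND6* at 0.58. With 0 and 1 h only, 5 WT slopes were higher and 1 lower, 1 A5-KO slope was higher and 2 lower, 0 slope differences were called, and the A5-KO slope of *MT-ND5* was 0.05. With 0 and 3 h only, 3 WT slopes were higher and 8 slope differences lower. Apart from the median-of-ratios scaling, the share of all genes called is not given for these fits, so their counts cannot be read as particular to the members. Without 3 h, an alternative added after the data were seen, 1 WT slope was lower and 0 slope differences. No filter left 0 slope differences, with the 3 values unmoved (adjusted p 0.086 to 0.096). The replicate block also gave 0 slope differences (adjusted p = 0.053 for each of *MT-ND2*, *MT-CYB* and *MT-ND1*) and changed no other count by over 1.5 times; same-numbered libraries deviated together in PPs at 0 h but not in the other comparisons (r = 0.0443 in hILOs and 0.289, -0.0193, -0.113 and 0.000203 in PPs at 0 to 3 h), so the numbers were not taken to pair them. Leaving out 1 library at a time gave 0 to 4 lower slope differences, 5 to 7 lower A5-KO slopes (*MT-ND5* was lost without WT replicate 1 at 2 or 3 h, A5-KO replicate 1 at 0 h, or any A5-KO library at 2 or 3 h), 0 to 1 members higher in WT at 1 h and 0 to 1 lower in A5-KO at 1 h. For the WT call it was WT replicate 1 at 0 h or at 1 h. The slope differences of *MT-ND2*, *MT-CYB* and *MT-ND1* were all called without WT replicate 1 at 0 or 1 h, either WT library at 2 h, or A5-KO replicate 2 at 1 h; without any other library the calls ended (adjusted p 0.052 to 0.13), except for *MT-ND2* without A5-KO replicate 2 at 0 h. Their values stayed between -0.46 and -0.37 for *MT-ND2*, -0.25 and -0.20 for *MT-CYB* and -0.22 and -0.18 for *MT-ND1*. The cause was not tested. No alternative could be run for the members in hILOs, where all are listed at 0, and TPM keeps no depth. Slope differences were called lower for 355 of all genes by limma and 612 by edgeR.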

Other observations

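Among nuclear genes averaging 10 CPM or more, those whose log2 level over the 16 PP libraries followed the mean of the 10 mRNAs most closely were *PTCD2* (Pearson r 0.89), which is known to act on the *MT-CYB* transcript, *MRPS27*, a protein of the small mitochondrial ribosomal subunit (0.86, 116 to 157 CPM), *TTC30A* (0.85), *GYG1* (0.85) and *CIBAR1* (0.85). The libraries share genotypes, times and total, and the genes were ranked by this value, so it is a description only.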
